A study of Mus musculus with 33 samples.

Results

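A set of 59 genes had less RNA in both Trps1-floxed genotypes of mouse mammary organoids than in Trps1+/+ organoids, on both days of harvest. The set was chosen from these organoid values. A gene entered when the mean log2 level of each floxed genotype lay at least 1 below that of Trps1+/+ on day 14 and on day 28, and when the Trps1+/+ mean log2 level was at least 6 on both days. Of 24200 genes in the table, 11759 reached that level, and 66 of these (0.561%) met the difference. Trps1 itself and 6 further genes (Lalba, Ifit1, Ifi44, Gbp3, Isg15 and Oas2) were then dropped by name, which left 59. Levels are log2(normalized count + 1), the scale on which the authors deposited them, and a difference of 1 is a change of about 2-fold.

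The study measured RNA by sequencing in 33 samples of mouse mammary origin. Organoids, tumors and a guide RNA experiment varied Trps1, which encodes TRPS1, a GATA-type zinc finger protein that represses transcription. A drug experiment, described below, did not target Trps1. Organoids were grown in Matrigel from primary mammary tissue, transduced with an adenovirus that carries Cre, and harvested after 14 or 28 days, with 2 libraries per genotype and day. The control genotype was Cdh1F/F;Trps1+/+ (here Trps1+/+). The floxed genotypes were Cdh1+/F;Trps1F/F, with 1 floxed allele of Cdh1, and Cdh1F/F;Trps1F/F, with both. All 3 carried at least 1 floxed allele of Cdh1, which encodes E-cadherin, and all were given Cre, so no group was without Cre. The Cdh1+/F;Trps1F/F organoids differed from Trps1+/+ in Cdh1 as well as in Trps1, and each genotype came from its own mice, so that genotype and source mice cannot be told apart. HC11, an established mouse mammary epithelial cell line, carried 1 guide RNA against Trps1 (sgTrps1) or 1 scrambled guide (sgScr), with 2 libraries each. A further HC11 experiment compared DMSO with trichostatin A (TSA), which inhibits histone deacetylases, at 300 nM for 24 h, with 3 libraries each. Tumors came from WAP-cre;Cdh1F/F;Trps1F/F mice (8 tumors of 6 mice) and WAP-cre;Cdh1F/F;Trps1+/+ mice (3 tumors of 3 mice), in which Cre is driven by a milk protein promoter. Labels give no ages, and say nothing on whether cell line or organoid replicates were separate cultures, so their spread may be technical.

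As background, mammary epithelium is a bilayer of luminal and basal cells whose growth and differentiation respond to retinoids, vitamin D, prostaglandins and paracrine ligands. Retinoic acid and the active form of vitamin D switch on the enzymes that break them down, so that Cyp26a1 and Cyp24a1 are widely used as readouts of these ligands. Prostaglandin E2 is made through Ptgs2 and Ptges, and osteopontin (Spp1), connective tissue growth factor (Ctgf) and alkaline phosphatase (Alpl) act in the matrix and in mineralization. All of these genes are among the 59.

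Sequences at the starts of the genes are shown because TRPS1 belongs to the GATA family and because Cyp26a1 is a known retinoic acid target. They come from RefSeq (GRCm38.p6). Its table of windows of 300 bases, from 250 before to 50 after a start, held 49 windows of 41 of the 59 genes. For Cyp26a1, which had the largest mean difference of the 59, the site with a direct repeat of AGTTCA spaced by 5 bases (searched on both strands and added after the genes were known) is printed with the repeat in capitals. The printed bases are those of the + strand at chr19:37697770-37697799. The first base of the repeat lies 32 bases before the start of a RefSeq transcript and inside a longer one, and the repeat reads on the opposite strand.
Cyp26a1: taaagaTGAACTTTGGGTGAACTaatttgt
For Dhrs9 (chr2:69380212-69380461, + strand), Tmem213 (chr6:38109103-38109352, + strand) and C5ar2 (chr7:16244155-16244404, - strand), the 250 bases before the start are printed, with a GATA-type match in capitals (on either strand, any of 4 words: GATAA with A before it, GATAA with T before it, GATAG with A before it, or GATAG with T before it).
Dhrs9: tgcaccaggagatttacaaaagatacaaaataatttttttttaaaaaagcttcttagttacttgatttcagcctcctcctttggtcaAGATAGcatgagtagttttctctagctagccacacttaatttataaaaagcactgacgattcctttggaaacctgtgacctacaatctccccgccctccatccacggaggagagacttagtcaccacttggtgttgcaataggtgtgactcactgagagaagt
Tmem213: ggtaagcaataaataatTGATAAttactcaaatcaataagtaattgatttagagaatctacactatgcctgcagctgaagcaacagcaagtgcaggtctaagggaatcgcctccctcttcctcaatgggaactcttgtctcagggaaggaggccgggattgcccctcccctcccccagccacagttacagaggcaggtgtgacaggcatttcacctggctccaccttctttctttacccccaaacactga
C5ar2: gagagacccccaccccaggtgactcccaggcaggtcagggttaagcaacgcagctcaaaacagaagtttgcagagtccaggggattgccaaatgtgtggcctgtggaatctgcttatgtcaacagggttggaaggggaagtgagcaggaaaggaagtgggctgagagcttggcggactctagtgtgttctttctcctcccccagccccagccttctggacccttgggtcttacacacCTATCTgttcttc

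The AGTTCA repeat was found in 8 of all 32851 windows of the table (0.0244%), and in 1 window of the 59 genes, that of Cyp26a1. A match of the GATA type was present in 10 of the 49 windows (20.4%), those of 8 genes, against 29.8% of all windows. Matches of the E-box type (CAGCTG, and also the related CAGGTG) were present in 46.9% of the 49 windows and in 33.0% of all windows. The AP-1 type (TGAGTCA, and also its reverse complement TGACTCA) was found in 2.04% against 5.2%, GGAATG (TEAD type) in 16.3% against 14.7%, TATAAA in 16.3% against 13.6%, and CCAAT in 36.7% against 37.4%. These are matches of letters in short windows, on either strand, and say nothing of binding. In the genome, 58 of the genes could be placed, on 20 chromosomes, with at most 9 on chromosome 7. Edn2 and Col9a2 on chromosome 4, which lie 872206 bases apart, were the only pair less than 2 Mb apart.

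The authors scaled the 4 tables separately, and levels were not compared between them. Library sizes ran from 14858175 to 30341900 reads in the organoids, from 21374526 to 38773075 in the guide experiment, from 17809076 to 25614664 in the TSA experiment and from 18320414 to 24225027 in the tumors. The targeted gene followed its label in the organoids: Trps1 had log2 levels of 13.59 and 13.51 in Trps1+/+ on day 14, of 9.50 and 9.98 in Cdh1+/F;Trps1F/F and of 11.39 and 11.27 in Cdh1F/F;Trps1F/F. On day 28 the levels were 13.96 and 13.62, then 9.45 and 10.04, and 11.23 and 11.05. Cdh1 RNA lay between 13.04 and 13.94 in all 12 libraries, so its level does not mark the recombination.

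Across the 59 genes, the median difference from Trps1+/+ was -2.28 in Cdh1+/F;Trps1F/F, against -1.66 in Cdh1F/F;Trps1F/F on day 14, and -2.52 and -2.10 on day 28. These values describe the choice and carry no test. Among all 11759 genes the medians lay between -0.03 and 0.02, and a difference of -1 or less was met by 4.36% and 5.93% of genes on day 14 and by 6.43% and 7.33% on day 28. In all 59 genes, every library of both floxed genotypes lay below both Trps1+/+ libraries of its day, as did 5.14% of the 11759 genes. Just inside the threshold were Nckap5, Edn2 and Scube1, with weakest differences of -1.04, -1.05 and -1.05. Just outside were Cbr2, Sybu and Apol9a, each at -0.98.

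**Figure D1:**
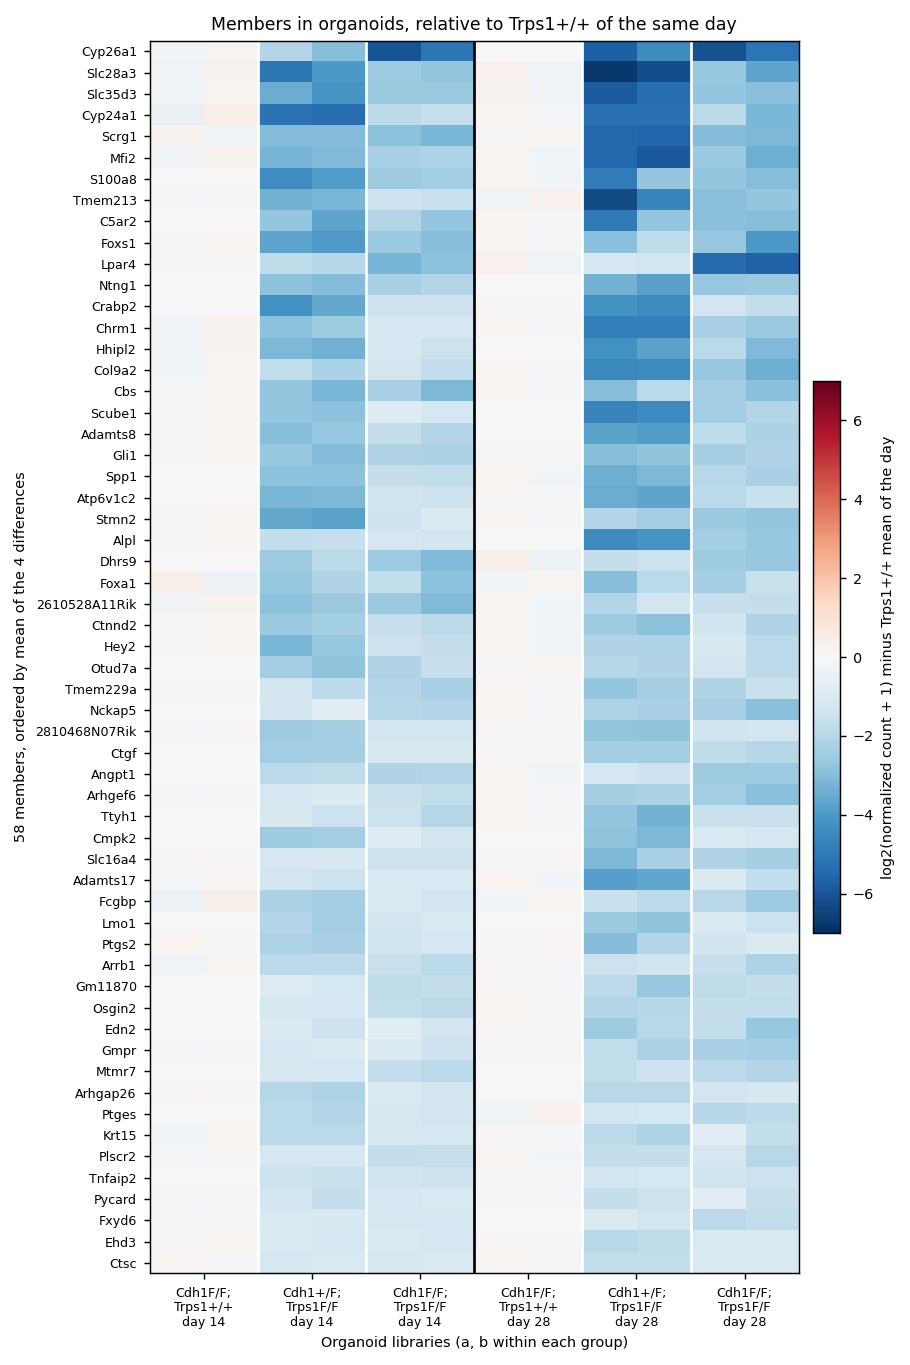
Log2 level of 58 of the 59 genes (rows) in each of 12 organoid libraries (columns), minus the Trps1+/+ mean of the same day. Rows run from the largest mean difference (Cyp26a1, -4.68) to the smallest (Ctsc, -1.25); blue is lower than Trps1+/+, and both floxed genotypes are blue in every row on both days.

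Genes of retinoid and vitamin D turnover had some of the largest differences. Cyp26a1, the main retinoic acid hydroxylase, had log2 levels of 6.85 and 7.19 in Trps1+/+ on day 14, of 4.96 and 4.06 in Cdh1+/F;Trps1F/F and of 0.96 and 1.97 in Cdh1F/F;Trps1F/F. On day 28 it stood at 7.76 and 7.66, then 2.00 and 3.31, and 1.62 and 2.60. Both floxed genotypes lay below Trps1+/+, and on day 14 the libraries of Cdh1F/F;Trps1F/F were the lowest. The Cdh1F/F;Trps1F/F values rest on 1 and 3 reads on day 14 and on 2 and 4 reads on day 28, and 1 Cdh1+/F;Trps1F/F library on day 28 had 2 reads, so the size of the difference and its rank in the set are imprecise. Crabp2, which carries retinoic acid to its nuclear receptors, had log2 levels of 10.23 and 10.25 in Trps1+/+ on day 14, of 6.03 and 6.67 in Cdh1+/F;Trps1F/F and of 8.78 and 8.80 in Cdh1F/F;Trps1F/F. On day 28 the Crabp2 levels were 10.71 and 10.56, 6.44 and 6.23, and 9.31 and 8.97. Here the order of the floxed genotypes was the opposite of that for Cyp26a1, with Cdh1+/F;Trps1F/F lowest on both days. Dhrs9, a dehydrogenase that can oxidize retinol, differed by -2.22 and -2.82 on day 14 and by -1.57 and -2.58 on day 28 (log2, Cdh1+/F;Trps1F/F given before Cdh1F/F;Trps1F/F, here and below). Cyp24a1, which inactivates vitamin D, had log2 levels of 8.08 and 9.04 in Trps1+/+, of 3.37 and 3.24 in Cdh1+/F;Trps1F/F and of 6.73 and 6.96 in Cdh1F/F;Trps1F/F on day 14. On day 28 its log2 levels were 7.81 and 7.54, 2.46 and 2.45, and 5.77 and 4.49.

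Other genes of these pathways were given by lists. Of 24 measured genes on a list of arachidonate, retinoid and steroid metabolism, 3 are among the 59 (Ptgs2, Ptges and Crabp2). On that list, 5 genes in Cdh1+/F;Trps1F/F (against 13 in Cdh1F/F;Trps1F/F) differed by -1 or less on day 14, and 8 and 5 by 1 or more. The list's median was 0.42 in the former and -1.11 in the latter on day 14, and 0.68 and -0.77 on day 28. Aldh1a2, which makes retinoic acid, differed by 4.96 and -1.64 on day 14 and by 3.77 and -1.14 on day 28. Cyp26b1, the paralog of Cyp26a1, differed by -1.63 and 0.64 on day 14 and by -3.75 and -0.87 on day 28. On a list of vitamin D response that was drawn up after the 59 genes were seen, 8 genes were measured, Cyp24a1 among them. Of the 8, 4 in Cdh1+/F;Trps1F/F differed by -1 or less on day 14, against 3 in Cdh1F/F;Trps1F/F, and 4 and 1 on day 28, with medians of -0.66 and 0.05, then -1.03 and -0.49. The receptor Vdr differed by -0.15 and 0.07 on day 14 and by -1.23 and -0.61 on day 28. The calcium channel gene Trpv6 differed by -1.88 and 0.86, then by -2.94 and 0.39.

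In the prostaglandin pathway, Ptgs2 (cyclooxygenase 2) had log2 levels of 11.88 and 11.61 in Trps1+/+ on day 14, against 9.56 and 9.44 in Cdh1+/F;Trps1F/F and 10.35 and 10.56 in Cdh1F/F;Trps1F/F. On day 28 the Ptgs2 levels were 11.57 and 11.86, 8.67 and 9.64, and 10.30 and 10.71. Ptges, the inducible prostaglandin E synthase, differed by -1.96 and -1.21 on day 14 and by -1.29 and -1.91 on day 28. Ptgs1, the constitutive cyclooxygenase, differed by -0.06 and 0.10 on day 14, and by 0.55 and -0.40 on day 28.

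Some genes of the set act in matrix or mineralization. Of measured genes on matrix lists, 0 of 31 for collagens, 0 of 31 for proteoglycans and elastic fibres and 0 of 24 for basement membrane are in the set. For matrix proteases it was 0 of 30, and for matricellular proteins 2 of 23 (Spp1 and Ctgf). Day 14 medians of these lists ran from 0.61 to 2.21 in Cdh1+/F;Trps1F/F and from -1.30 to -0.12 in Cdh1F/F;Trps1F/F. Spp1, which encodes the secreted adhesive protein osteopontin, had log2 levels of 17.87 and 17.80 in Trps1+/+ on day 14, of 14.99 and 14.95 in Cdh1+/F;Trps1F/F and of 16.16 and 16.10 in Cdh1F/F;Trps1F/F. On day 28 they were 17.96 and 17.55, 14.33 and 14.59, and 15.80 and 15.52. The libraries of a group lay within 0.5 of each other, and the 3 genotypes did not overlap on either day. Alpl, which hydrolyses pyrophosphate, differed by -1.64 and -1.23 on day 14 and by -4.25 and -2.53 on day 28. Col9a2, a chain of the cartilage collagen type IX, differed by -1.97 and -1.49, then by -4.49 and -3.05. Scrg1, first known from cartilage and nerve, differed by -3.05 and -3.02, then by -5.53 and -3.09. Ctgf, a matricellular protein, differed by -2.40 and -1.13, then by -2.38 and -1.88. On a list of cartilage and mineralization genes drawn up after the 59 were seen, 18 genes were measured and 4 are in the set. Of the 14 outside the set, 5 in each genotype differed by -1 or less on day 14, and 7 and 6 on day 28. Their medians were -0.17 and -0.48, then -1.09 and -0.66. The shares over all genes given above are for genes with a Trps1+/+ mean log2 level of at least 6. Genes on the list passed a lower limit, so their counts are not directly comparable with those shares. Col10a1 differed by -4.29 and -3.27 on day 14, from a Trps1+/+ mean log2 level of 5.18 that lay under the minimum of the rule. Sox9 differed by 0.10 and 0.87, and Runx2 by 0.13 and -0.41.

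Among secreted ligands and their partners, Angpt1, the ligand of the receptor TIE2, differed by -1.82 and -2.06 on day 14 and by -1.34 and -2.52 on day 28. Of 66 measured genes on a list of growth factor ligands and binding proteins, 1 is in the set, Angpt1. Edn2, an endothelin, differed by -1.23 and -1.05, then by -2.21 and -2.20. Scube1, a secreted protein of a family that binds Hedgehog ligands, differed by -2.80 and -1.05, then by -4.54 and -2.26. Hhipl2, related to a Hedgehog-binding protein, differed by -3.24 and -1.36, then by -3.97 and -2.48. The Hedgehog effector and target Gli1 differed by -2.83 and -2.17, then by -2.90 and -2.22. Ptch1, a further Hedgehog target, differed by 0.13 and 0.40 on day 14 and by -1.17 and -0.16 on day 28, and is not in the set. On a Hedgehog list of 15 measured genes, again drawn up afterwards, 3 and 5 differed by -1 or less on day 14 and 6 and 6 on day 28, with medians of 0.16 and -0.39, then -0.26 and -0.84. Hey2, a Notch target, differed by -2.91 and -1.59, then by -2.15 and -1.5. On a Notch list of 13 measured genes, also drawn up afterwards and with Hey2 on it, 5 and 2 differed by -1 or less on day 14 and 8 and 2 on day 28, with medians of -0.32 and 0.17, then -1.44 and -0.15. The Notch targets Heyl and Hes1 differed by -1.04 and -1.48, and by 1.08 and 1.27, on day 14.

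The set also holds receptors and signal adaptors. Lpar4, a receptor for lysophosphatidic acid, had log2 levels of 8.85 and 8.65 in Trps1+/+ on day 14, of 6.98 and 6.77 in Cdh1+/F;Trps1F/F and of 5.5 and 5.86 in Cdh1F/F;Trps1F/F. On day 28 the Lpar4 levels were 8.57 and 7.94, 7.14 and 6.96, and 2.85 and 2.60. It had the most negative difference of Cdh1F/F;Trps1F/F from Cdh1+/F;Trps1F/F in the set, at -2.76 over both days. C5ar2, the non-canonical receptor of complement C5a, differed by -3.22 and -2.39, then by -3.86 and -2.97. The muscarinic receptor gene Chrm1 differed by -2.66 and -1.19, then by -4.79 and -2.45. Arrb1, a β-arrestin that uncouples such receptors, differed by -1.82 and -1.72, then by -1.45 and -1.87.

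Transporters and membrane proteins held several of the largest differences. Slc28a3, a concentrative nucleoside transporter, had log2 levels of 9.72 and 10.23 in Trps1+/+ on day 14, of 4.91 and 5.96 in Cdh1+/F;Trps1F/F and of 7.42 and 7.19 in Cdh1F/F;Trps1F/F. On day 28 they were 10.17 and 9.57, 3.09 and 3.65, and 7.22 and 6.16. Cdh1+/F;Trps1F/F was again lowest on both days. Slc35d3, of the nucleotide sugar transporter family, differed by -3.80 and -2.60, then by -5.56 and -2.83. Mfi2, which encodes the iron-binding melanotransferrin, differed by -3.19 and -2.20, then by -5.69 and -3.02. Tmem213, a transmembrane protein, differed by -3.25 and -1.49, then by -5.46 and -2.80. Atp6v1c2, a subunit of the vacuolar proton pump, differed by -3.18 and -1.43, then by -3.58 and -1.71. Fxyd6, a regulator of the sodium pump, had some of the smallest differences, at -1.10 and -1.15, then -1.17 and -1.79.

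Of transcription factors, Foxa1, the pioneer factor of hormone-sensing luminal cells, differed by -2.37 and -2.30 on day 14 and by -2.44 and -1.93 on day 28. Foxs1 differed by -3.82 and -2.79, then by -2.35 and -3.35, and the LIM-only cofactor gene Lmo1 by -2.25 and -1.15, then by -2.72 and -1.27. Immune-related genes included S100a8, a subunit of calprotectin, at -4.12 and -2.46, then -3.82 and -2.83, and the inflammasome adaptor gene Pycard at -1.48 and -1.16, then -1.59 and -1.18. Cmpk2, an interferon-inducible nucleotide kinase that the dropping of names did not touch, differed by -2.41 and -1.10, then by -2.99 and -1.13. Tnfaip2 differed by -1.53 and -1.42, then by -1.26 and -1.44. Of 36 measured cytokines and chemokines, 0 are in the set, as are 0 of 30 measured genes of complement and antigen presentation. Genes better known from neurons were also present: Ntng1, a membrane-anchored netrin, differed by -2.95 and -2.18, then by -3.56 and -2.63. Stmn2, which regulates microtubules, differed by -3.68 and -1.25, then by -2.27 and -2.66. Of 32 measured genes on a list of axon guidance and neural adhesion, 0 are in the set. The medians of that list were 0.00 and -0.69 on day 14, then 0.48 and -0.93. Cbs, which makes cystathionine from homocysteine, differed by -2.95 and -2.72, then by -2.41 and -2.70, and the basal keratin gene Krt15 by -1.88 and -1.18, then by -2.02 and -1.22.

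The floxed genotypes differed in how low they stood, on values the rule had used, so their order is described only. The mean of Cdh1+/F;Trps1F/F was below that of Cdh1F/F;Trps1F/F in 42 of the 59 genes on day 14 and in 42 on day 28, and in 35 on both days, whereas the opposite order held on both days in 10. Over all 11759 genes, the same order was seen in 58.6% on day 14 and in 58.2% on day 28. Among the 1303 genes that were below Trps1+/+ in all 4 comparisons, Cdh1+/F;Trps1F/F was the lower on both days in 52.3%. The genes with the largest excess of Cdh1F/F;Trps1F/F over Cdh1+/F;Trps1F/F, as the mean of both days, were Cyp24a1 (3.11), Crabp2 (2.63) and Slc28a3 (2.60). Those with the most negative values were Lpar4 (-2.76), Cyp26a1 (-1.80) and Dhrs9 (-0.80). Trps1 RNA itself was lower in Cdh1+/F;Trps1F/F, with differences from Trps1+/+ of -3.81 and -4.04 against -2.22 and -2.65; its part in these values was not tested.

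**Figure D2:**
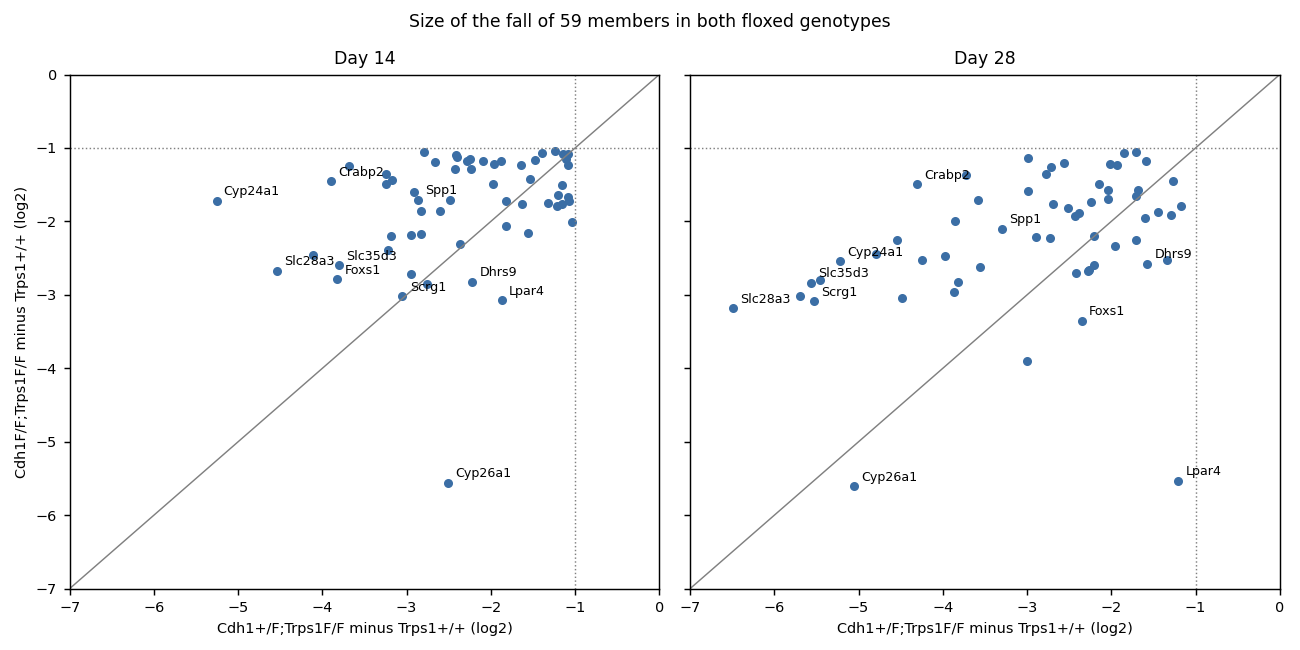
Difference of each of the 59 genes from Trps1+/+ (log2) in Cdh1+/F;Trps1F/F (x axis) and in Cdh1F/F;Trps1F/F (y axis), on day 14 and day 28. Dotted lines mark the threshold of -1 and the grey line marks equal differences; 42 of 59 points lie above it on each day, and Lpar4 and Cyp26a1 lie below it on both.

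The set was also compared between the days, on values the rule had used. The difference from Trps1+/+ was more negative on day 28 than on day 14 in 42 of the 59 genes for Cdh1+/F;Trps1F/F and in 46 for Cdh1F/F;Trps1F/F. Over the 11759 genes these shares were 49.3% and 50.7%, and among the 1303 genes below Trps1+/+ in all 4 comparisons they were 58.9% and 65.8%. In Trps1+/+ organoids, 38 of the 59 had a higher mean on day 28, against 52.4% of the 11759 genes. The largest gains there were those of Adamts17 (1.53), a secreted metalloprotease, and Edn2 (1.38), and the largest losses those of Cyp24a1 (-0.88), Dhrs9 (-0.81) and Stmn2 (-0.61).

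Markers of several other cell types also differed between the genotypes. In bulk RNA, fewer cells of a type and less RNA per cell cannot be told apart. The summed normalized counts of 21 fibroblast markers ran from 153929 to 155503 in Trps1+/+ on day 14, from 757729 to 833281 in Cdh1+/F;Trps1F/F and from 55820 to 56245 in Cdh1F/F;Trps1F/F. On day 28 the fibroblast sums were 121561 to 128595, 494018 to 576871 and 46975 to 55756. Of 20 measured fibroblast markers, 15 in Cdh1+/F;Trps1F/F differed by 1 or more on day 14 and 19 on day 28, while 16 and 19 in Cdh1F/F;Trps1F/F differed by -1 or less. Skeletal muscle markers on day 28 summed to 9420 to 14352 in Trps1+/+, 78034 to 101314 in Cdh1+/F;Trps1F/F and 1606 to 2428 in Cdh1F/F;Trps1F/F. Of 12 marker lists, 5 (fibroblast, skeletal muscle, adipocyte, endothelial, and milk protein and alveolar) had sums above Trps1+/+ in Cdh1+/F;Trps1F/F and below it in Cdh1F/F;Trps1F/F on both days. Hormone-sensing luminal markers, the list with Foxa1, summed to 7259 to 8564 in Trps1+/+ on day 14, to 5487 to 5543 in Cdh1+/F;Trps1F/F and to 6335 to 6591 in Cdh1F/F;Trps1F/F, below Trps1+/+ in both as were the 59 genes. On day 28 these sums were 3966 to 4342, 4565 to 4566 and 6120 to 6615. Schwann and glial sums were above Trps1+/+ in both floxed genotypes on both days, at 9336 to 10199, 13396 to 13429 and 14221 to 15389 on day 14. A sum below every Trps1+/+ library in both genotypes on both days was seen for 0 of the 12. Epithelial markers were present throughout: Krt8 lay between 12.40 and 14.60 and Krt5 between 12.66 and 15.46 on the log2 scale. Luminal sums on day 28 were 102673 to 110884 in Trps1+/+, 72630 to 80394 in Cdh1+/F;Trps1F/F and 163054 to 170230 in Cdh1F/F;Trps1F/F, and basal sums were 126329 to 134131, 60595 to 62128 and 139998 to 175503. Of the 59 genes, 1 stands on any of the 12 lists, Foxa1 among the hormone-sensing luminal markers. The defining fibroblast marker Col1a1 lay between 8.57 and 16.41, so that it was at 0 in no library, and the part of these cells in the values of the 59 genes was not tested.

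The guide RNA experiment in HC11 asked how the genes behave when Trps1 is targeted in a cell line, in libraries the rule had not used. Spp1 and Ptgs2 fell in sgTrps1 cells, as did Lmo1, Adamts17, Tnfaip2, Crabp2 and Ctgf, while Cbs, Cmpk2, Slc16a4, Nckap5, Gli1 and Hhipl2 rose. Spp1 had log2 levels of 15.05 and 14.70 with sgScr and of 10.49 and 10.46 with sgTrps1, a fall of 21.1-fold (log2 fold change -4.40 ± 0.09 SE, limma adjusted p = 4.73e-13). Ptgs2 had 13.26 and 13.06 against 10.26 and 10.32, a fall of 7.3-fold (-2.87 ± 0.07, limma adjusted p = 8.59e-13). Lmo1 had 9.09 and 8.83 against 6.54 and 6.36, a fall of 5.71-fold (-2.51 ± 0.11, limma adjusted p = 4.5e-10). In each of these, both sgTrps1 libraries lay well below both sgScr libraries.

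Crabp2 fell less, from 12.06 and 11.78 to 11.08 and 11.11 (1.77-fold, log2 fold change -0.82, limma adjusted p = 6.06e-07). Adamts17 fell by 1.57, Tnfaip2 by 1.02, Gm11870 by 0.98 and Ctgf by 0.69 on the log2 scale. The rise of Cbs was 6.18-fold, from log2 levels of 1.57 and 1.5 to 4.07 and 4.26 (limma adjusted p = 4.62e-05), and Cbs passed the filter on low values only through the sgTrps1 group. Gli1, which was low in the floxed organoids, rose from 8.53 and 8.54 to 9.53 and 9.54 (1.99-fold, limma adjusted p = 3.55e-08). Cmpk2 rose by 2.60, Slc16a4 by 1.56, Nckap5 by 1.51, Hhipl2 by 0.94 and Osgin2 by 0.36 on the log2 scale. The call for Tnfaip2 was lost without sgTrps1 replicate 2 (-0.86, limma adjusted p = 0.0561), that for Osgin2 also without sgTrps1 replicate 2 (0.30, limma adjusted p = 0.061), and that for Slc16a4 without sgTrps1 replicate 1 (1.34, limma adjusted p = 0.0778). The call for Gm11870 was lost without sgScr replicate 2 (-0.64, limma adjusted p = 0.211) and without sgTrps1 replicate 2 (-0.55, limma adjusted p = 0.379).

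Of the 59 genes, 58 were matched in this table and 20 passed the filter on low values. Of these 20, 7 rose and 8 fell, against 67.1% of the 12562 genes tested that were called in either direction (34.6% up, 32.4% down). The median log2 fold change of the 20 was -0.14 and that of all genes tested was 0.02. In 5 of the 20 the mean of a group lay under the filter, so that they passed through the group in which they were high; 3 of these rose (Cbs, Cmpk2 and Slc16a4), Gm11870 fell and Krt15 was not called. HC11 cells had few reads of many of the genes: 20 of the 58 had at most 3 reads in every library, among them Cyp26a1, Cyp24a1, Foxa1, Slc28a3, Col9a2 and C5ar2, and 6 had no read at all. For those genes the cell line gives no comparison at this depth. Trps1 RNA was 13.88 with sgTrps1 and 13.84 with sgScr (log2 fold change 0.04, limma adjusted p = 0.676), so that its level does not check the label, and Cdh1 rose by 0.33 (limma adjusted p = 0.000884). With 1 guide per arm, an effect of the guide cannot be told apart from an effect of the target.

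TSA moved the genes in both directions. Trps1 itself fell from a mean log2 level of 13.97 to 10.93 (log2 fold change -3.05, limma adjusted p = 6.84e-14). The falling genes included Krt15, which passed the filter only through the DMSO group and had log2 levels of 6.79, 6.67 and 6.57 with DMSO and of 2.10, 3.22 and 2.57 with TSA (16.5-fold lower, log2 fold change -4.05 ± 0.28 SE, limma adjusted p = 4.56e-08). Plscr2, a phospholipid scramblase, fell 9.03-fold, Tnfaip2 7.67-fold, Cbs 6.63-fold and Ntng1 6.46-fold. Alpl fell 3.9-fold, from 6.59, 6.76 and 6.33 to 4.44, 4.78 and 4.57 (limma adjusted p = 6.87e-07). Crabp2 fell 1.68-fold, from 10.87, 10.89 and 10.86 to 10.11, 10.14 and 10.13 (limma adjusted p = 3.15e-09).

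Of the rising genes, Adamts17, Edn2, Arrb1 and Hey2 passed the filter only through the TSA group. Adamts17 went from log2 levels of 1.61, 1.08 and 2.05 to 6.89, 6.90 and 7.09 (log2 fold change 5.38 ± 0.27 SE, limma adjusted p = 2.81e-09). Edn2 rose by 5.36, Arrb1 by 4.69 and Hey2 by 4.62 on the log2 scale. Ctgf, listed in this table under its newer symbol Ccn2, rose 21.5-fold, from 10.27, 10.55 and 10.97 to 15.06, 15.00 and 15.01 (limma adjusted p = 1.88e-11). Stmn2 had no read in the 3 DMSO libraries and 234 reads in the TSA libraries, and was at least 67.8-fold higher, against a floor of 3 reads over the group. Spp1 rose 3.29-fold, from 14.68, 14.55 and 14.53 to 16.29, 16.25 and 16.37 (limma adjusted p = 4.56e-11). Ptgs2 rose 3.37-fold, from 12.99, 12.97 and 13.19 to 14.81, 14.79 and 14.81 (limma adjusted p = 4.82e-11).

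In all, 58 genes were matched in the TSA table and 28 passed the filter. Of the 28, 13 rose, 12 fell and 3 (Gli1, Angpt1 and Gm11870) were not called, in a comparison in which 85.2% of the 13044 genes tested were called (43.6% up, 41.6% down). The median log2 fold change of the 28 was 0.00 and that of all genes tested was 0.02. In 11 of the 28 a group's mean lay under the filter, so that a difference was needed for them to pass: 8 rose (Adamts17, Edn2, Arrb1, Hey2, Stmn2, Cmpk2, Hhipl2 and Fcgbp) and 3 fell (Krt15, Cbs and Scrg1). Gli1 had log2 levels of 8.49, 8.62 and 8.55 with DMSO and of 8.70, 8.80 and 8.57 with TSA (limma adjusted p = 0.111); without TSA replicate 3 it was called (0.20, limma adjusted p = 0.036), as was Angpt1 without TSA replicate 1 (-0.49, limma adjusted p = 0.0304).

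Set side by side, 17 of the genes passed the filter in both HC11 tables, which have no library in common. Of these, 3 fell in both (Crabp2, Lmo1 and Tnfaip2) and 3 rose in both (Cmpk2, Hhipl2 and Osgin2). Ctgf, Adamts17, Ptgs2 and Spp1 rose with TSA and fell with sgTrps1, and Cbs did the reverse. In both tables, Cmpk2 and Cbs passed the filter only through the group in which they were high. The same held for Hhipl2 and Adamts17 with TSA, so a difference was needed for these genes to be counted. Of all 11088 genes tested in both tables, 15.6% fell in both, 15.6% rose in both, 12.8% rose with TSA and fell with sgTrps1, and 14.8% did the reverse.

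**Figure D3:**
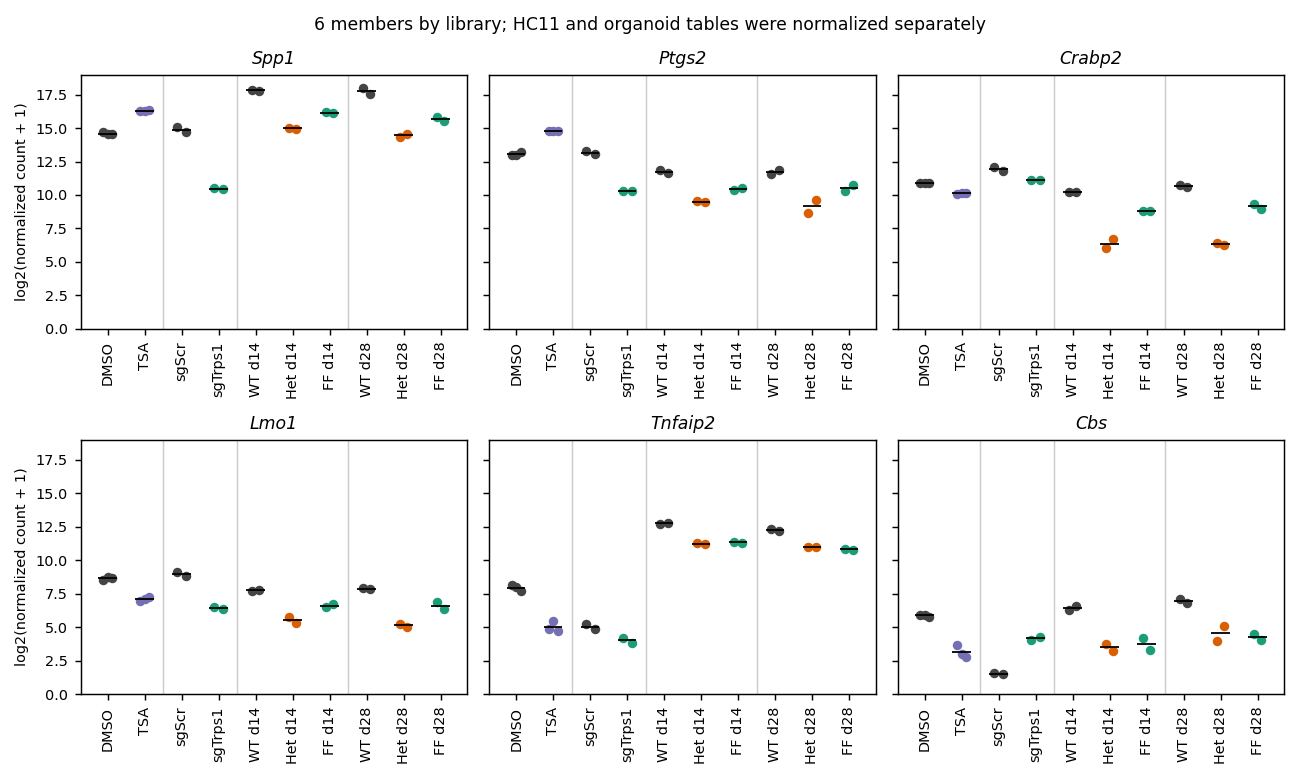
Log2(normalized count + 1) of 6 of the genes in each HC11 and organoid library; points are libraries and bars are group means, with WT for Cdh1F/F;Trps1+/+, Het for Cdh1+/F;Trps1F/F and FF for Cdh1F/F;Trps1F/F. Spp1 and Ptgs2 are higher with TSA and lower with sgTrps1, Crabp2, Lmo1 and Tnfaip2 are lower with both, Cbs is lower with TSA and higher with sgTrps1, and levels are not comparable between the 3 tables. In each HC11 table, Cbs passed the filter on low values only through the group in which it was high.

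**Figure D4:**
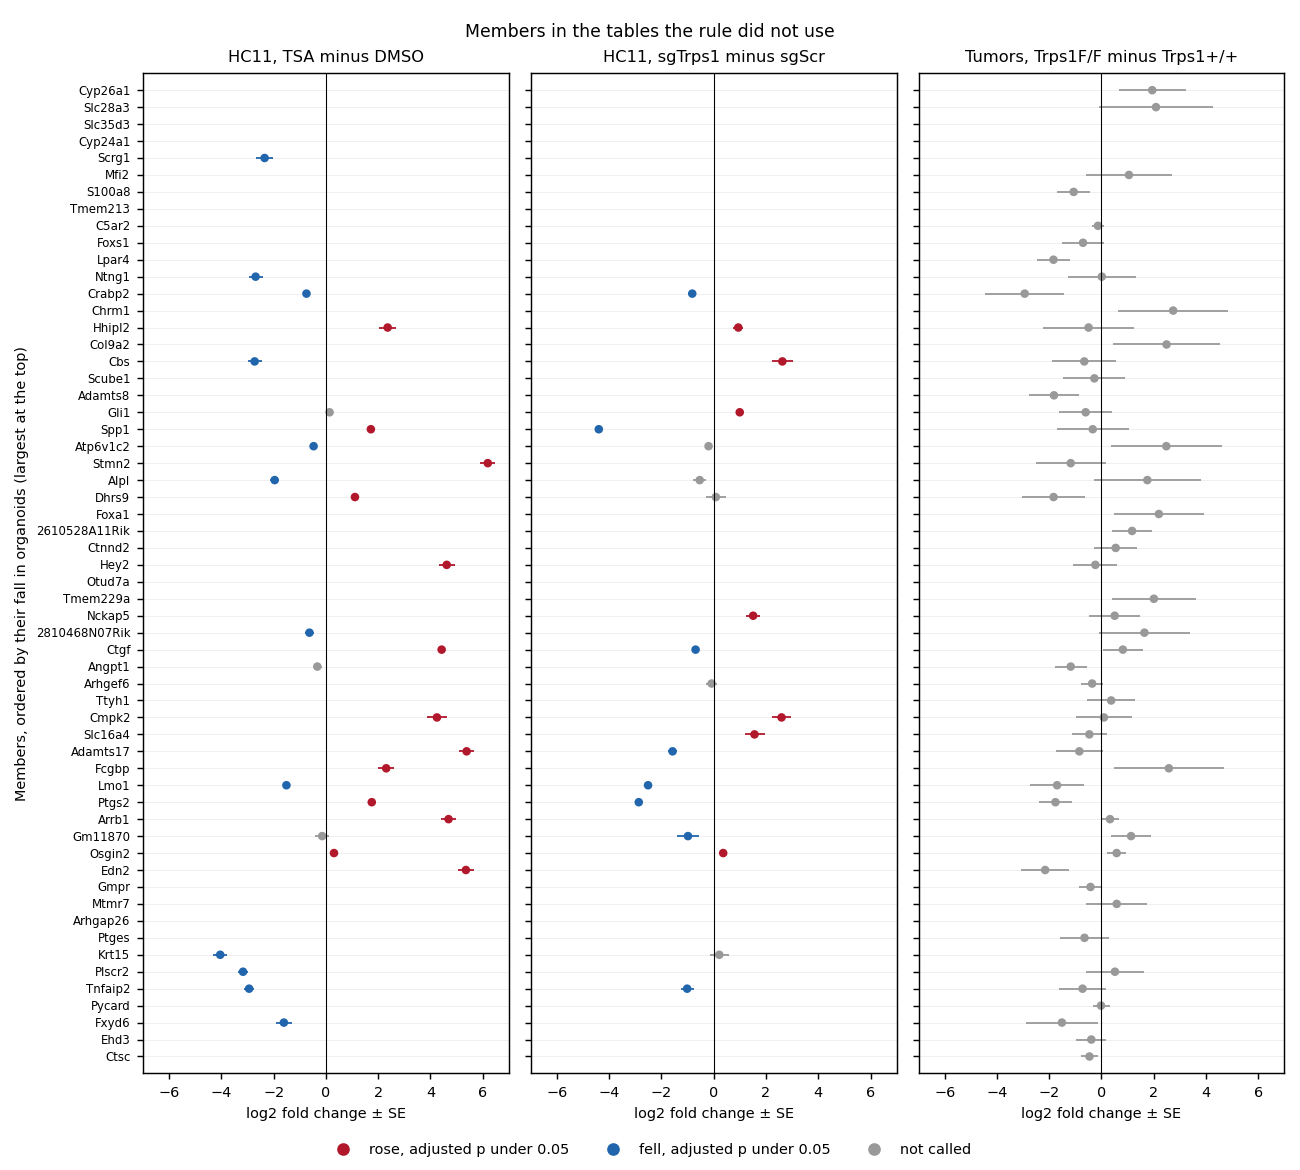
Log2 fold change ± SE (limma) of the genes that passed the filter in the TSA (28), guide RNA (20) and tumor (51) comparisons; rows without a point did not pass or were not matched. Red rose, blue fell at an adjusted p under 0.05, and grey was not called; the value of Stmn2 with TSA rests on a control group without reads.

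In tumors, 51 of the 58 matched genes passed the filter and 0 were called, as was the case for 0% of the 15095 genes tested with limma. By voom on recovered reads, 0 were called as well. Without adjustment, 3 of the 51 had a limma p under 0.05, against 5.24% of all genes tested, counted in either direction. All 3 had lower values in Trps1F/F, and the share of all genes in that direction alone is not given. By voom 1 of the genes had such a p. Lpar4 had log2 levels per mouse of 3.15 at the lowest, 4.51 at the median and 6.27 at the highest in 6 Trps1F/F mice, and of 6.56, 6.89 and 5.87 in 3 Trps1+/+ mice (log2 fold change -1.84 ± 0.63 SE, limma adjusted p = 0.802). Ptgs2 ran from 8.53 over a median of 9.90 to 11.91 in the Trps1F/F mice, and was 11.60, 12.53 and 11.20 in the Trps1+/+ mice (-1.76 ± 0.62, limma adjusted p = 0.802). Edn2 ran from 0.00 over 2.68 to 3.85, against 3.17, 6.13 and 4.36 (-2.16 ± 0.92, limma adjusted p = 0.802). Its Trps1F/F mean of 2.395 lay under the filter on low values, so Edn2 was tested mainly because of its higher Trps1+/+ values. For all 3 genes the groups overlapped. Crabp2 and Angpt1 had log2 fold changes of -2.94 ± 1.52 and -1.18 ± 0.62, with a limma adjusted p = 0.802 for both.

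The median log2 fold change of the 51 genes was -0.23, and that of all genes tested was 0.00; 28 of the 51 were negative, against 49.8% of all genes tested. In 12 of the 51, Edn2 among them, a group's mean lay under the filter. Trps1 RNA was lower by 1.26 in Trps1F/F tumors and Cdh1 RNA was higher by 1.81, neither of them called (limma adjusted p = 0.802 and 0.808). The share of tumor cells in each tumor was not analysed here.

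The Trps1F/F tumors carry subgroup labels, whose definition the labels do not give, so the values are described only. Subgroup 1 holds 4 tumors from 3 mice, and subgroups 2 and 3 hold 2 tumors each, every one from a different mouse; 1 mouse gave tumors to subgroups 1 and 3. The mean of subgroup 1 was the highest of the 4 groups in 28 of the 51 genes, against 33.1% of all genes tested, and the median difference from Trps1+/+ was 0.60 there, -0.55 in subgroup 2 and -0.40 in subgroup 3. Slc28a3 lay between 7.10 and 8.69 in the 4 tumors of subgroup 1, at 0.00 and 1.70 in subgroup 2, at 0.00 in both tumors of subgroup 3, and at 4.88, 0.00 and 0.00 in Trps1+/+. Cyp26a1 lay between 5.49 and 7.03 in subgroup 1 and at 3.54 or less in the other 7 tumors. Foxa1 lay between 7.24 and 8.91 in subgroup 1 and at 6.44 or less elsewhere. Atp6v1c2, Chrm1, Col9a2 and Alpl were likewise above all other tumors in the 4 tumors of subgroup 1, as were further genes of the set. Slc28a3, Cyp26a1, Foxa1, Atp6v1c2, Chrm1 and Col9a2 had a Trps1+/+ mean under the filter on low values. They were tested mainly because of their higher Trps1F/F values, and the counts of genes high in subgroup 1 include them. The genes named here were singled out after their values were seen. The share of all genes that were above all other tumors in this way is not given, so no trait of the set can be read from it. Against the Trps1+/+ tumors alone, 15 of the 51 genes lay higher in every tumor of subgroup 1, compared with 18.5% of all genes tested. Lower in every tumor of subgroup 1 were 10 of the 51, compared with 18.1% of all genes tested. Crabp2 lay between 4.11 and 9.11 in subgroup 1, below the other 7 tumors, of which the lowest was at 9.53. Spp1 had its highest values in subgroup 2, with 12.11, 11.77, 16.78 and 15.54 in subgroup 1 and 19.89 and 18.72 in subgroup 2. Summed luminal epithelial markers ran from 105053 to 175288 normalized counts in subgroup 1, from 10910 to 35473 in Trps1+/+, and from 2751 to 29497 in subgroups 2 and 3, and fibroblast sums from 108738 to 743916 in subgroup 1 against 490527 to 1387133 in Trps1+/+. Other lists also set subgroup 1 apart from every other tumor. Schwann and glial sums were 17417 to 26746 against 2238 to 4767, milk protein and alveolar sums 37072 to 72654 against 5661 to 14285, and macrophage and myeloid sums 55086 to 71841 against at least 77390. The part of these cells in the values of the set was not tested.

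**Figure D5:**
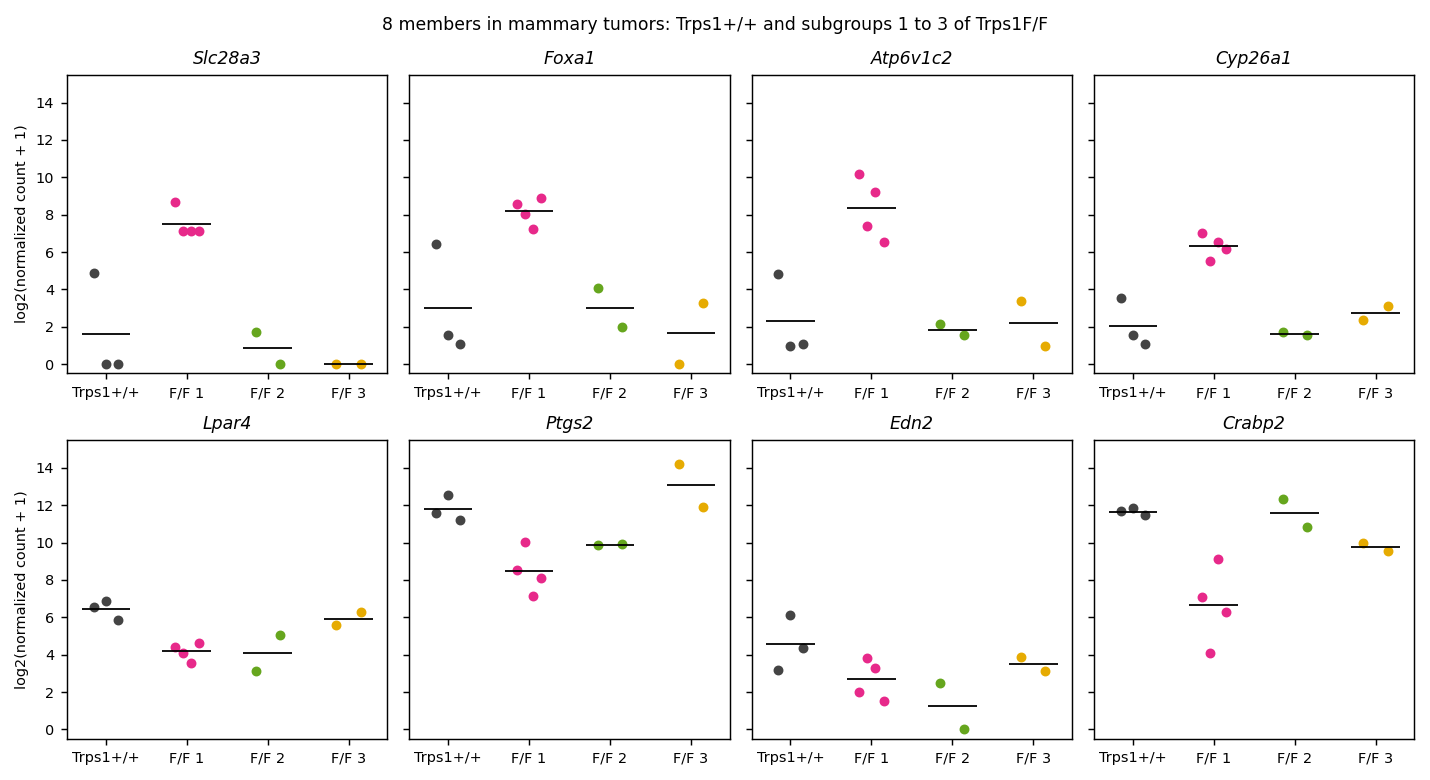
Log2(normalized count + 1) of 8 of the genes in each tumor, for Trps1+/+ and for subgroups 1 to 3 of Trps1F/F (F/F 1 to 3); points are tumors and bars are means. Slc28a3, Foxa1, Atp6v1c2 and Cyp26a1 (top) are highest in subgroup 1, while Lpar4, Ptgs2, Edn2 and Crabp2 (bottom) are 4 of the 5 genes with the smallest limma p, none of them called. The Trps1+/+ means of the 4 top genes and the Trps1F/F mean of Edn2 lay under the filter on low values.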

How the data were processed

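The 33 RNA-seq samples stand in 4 tables. Per the labels' protocols, RNA with an integrity number above 8 was made into TruSeq libraries. The submitters' processing notes name TopHat, HTSeq and GRCm38; their versions, the annotation and the strand setting of the counts are not stated in the labels, so values of overlapping genes and close paralogs are uncertain. The authors deposited log2 values, which equal log2(normalized count + 1), with 1 factor per library: whole reads could be recovered for 100% of values (tolerance 0.01 reads or, for large counts, 1e-05 of the count).

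Values were tested as deposited with limma 3.58.1 in R 4.3.3 (lmFit, eBayes with a variance trend) on every gene with a normalized count, with 1 added, of at least 10 in at least the smallest group's number of libraries. Adjusted p-values are Benjamini-Hochberg over all genes tested, with calls under 0.05. Tumors of a mouse were averaged first. The organoid libraries chose the genes, so no organoid value was tested. The script was tested on simulated data. Intervals and floors cover counting error only. Rows without a symbol (1 in each of the organoid and guide RNA tables) were left out.

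The genes, the lists and the tests were chosen with earlier results of these data known. Genes named are the 12 with the largest mean difference, up to 4 per list, the 3 nearest each side of the threshold, up to 6 rising and 6 falling calls per comparison (or the 5 smallest p), and the extremes between genotypes and days; other genes named for their role were chosen after their values were seen. Ctgf and Mfi2 appear as Ccn2 and Meltf in the TSA and tumor tables. Arhgap26 was not matched there, nor Tmem229a in the guide RNA table. Of the 59 genes, 1 is counted in the totals but not reported here by name.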

Additional observations from a re-analysis of the deposited data

How the results depend on the processing

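The rule itself gave 57 to 67 genes when each organoid library was left out in turn (52 to 59 of them shared with the 59), 56 after quantile normalization, 61 with a common median and 58 with a pseudocount of 8; with a threshold of -1.5 it gave 21, all of them shared. Without the filter on low values, 21 genes rather than 13 rose with TSA, since genes near the floor were then tested. Otherwise the counts of calls stayed within 1.5 times: leaving out a library gave 13 to 14 rising and 12 to 13 falling with TSA, 6 to 7 and 7 to 10 with sgTrps1, and 0 in tumors. The median log2 fold change with sgTrps1 was -0.14 and ran from -0.44 to -0.23 when a library was left out, over a filtered set that then changed; without the filter it was 0.08, and the TSA median went from 0.00 to 0.53. Gm11870 with sgTrps1 was not called without the filter (adjusted p = 0.143 with limma). With TSA, Gli1 was called with a common median (adjusted p = 0.0477) and by voom (0.0166), and Angpt1 and Gm11870 after quantile normalization (0.00127 and 0.00378). In tumors the median ran from -0.40 to 0.17 when a mouse was left out, so its sign rests on single mice. None of the members called with TSA or sgTrps1, and none of the 5 tumor genes named, changed sign under an alternative that gave it a value. With limma voom on recovered reads, chosen after seeing the data, 14 rose and 12 fell with TSA and 7 and 9 with sgTrps1. The planned edgeR test was not run, because the deposited values are logs.

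Replicate numbers did not pair the samples: deviations of same-numbered libraries had correlations of -0.084, -0.0034 and -0.0631 with TSA and of -0.19 with the guides. With the replicate block, 13 rose and 12 fell with TSA, and 7 rose and 8 fell with sgTrps1; with the crossed pairing of the guide libraries, added after seeing the data, 7 rose and 10 fell.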
